A study of Rattus norvegicus with 2 samples.

Results

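The fatty acid uptake and carnitine shuttle genes were a set of 10 genes, Lpl, Angptl4, Cd36, Fabp3, Acsl1, Cpt1a, Cpt1b, Cpt2, Acacb and Mlycd. A peak is a stretch of the genome with more ChIP reads than its surroundings. Peaks were taken by name, as every peak of any class that the authors' annotation assigned to 1 of these genes. This gave 33 peaks at 8 of the 10 genes, out of 28706 peaks and 8094 gene names in all. No peak carried the name of Cd36 or Cpt1b. The data came from 1 library of chromatin immunoprecipitation with sequencing (ChIP-seq) from the myocardium of male Wistar rats after abdominal aortic constriction. In that surgery the aorta is tied together with a wire of 0.7 mm above the renal arteries, which raises the load on the heart. The sample label identifies the antibody only by vendor and catalogue number. Its target was taken from the title of the series to be lactylation of H3K18, a lysine in the tail of histone H3 (H3K18la). The second labelled sample, the input of the same model, has no values in the tables used here. Hearts without constriction or with vagal stimulation were not analysed here, so nothing below is a difference between conditions. The number of rats behind the library, and their age, are not given in the labels used here. Each value comes from this 1 library, with no replicate error and no test, and sequencing depth is unknown.

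Long-chain fatty acids are a main fuel of the adult heart. Lipoprotein lipase frees them from circulating triglyceride at the capillary wall, membrane and cytosolic proteins carry them into the cell, and acyl-CoA synthetases trap them as acyl-CoA. The carnitine shuttle then moves the acyl group across the mitochondrial membranes, and malonyl-CoA blocks the first step of that shuttle. In hypertrophied hearts the use of fatty acids is known to decline relative to that of glucose. Histone lysine lactylation is a mark whose acyl group derives from lactate, and in other cells it has been reported at promoters and enhancers of active genes.

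The 250 bases before the gene start are shown for 4 genes whose peaks lay around the transcription start site (TSS), and for Mlycd, which had no promoter-class peak. They are RefSeq sequences on assembly GRCr8, read 5′ to 3′ on the gene's strand. Capitals mark matches on either strand to the GC box GGGCGG, to TATAAA of the TATA box or to CCAAT. The peaks have rn6 coordinates, and whether a RefSeq start is the TSS that the authors' annotation used was not tested.
Angptl4, GRCr8 chr7:15258682-15258931, minus strand: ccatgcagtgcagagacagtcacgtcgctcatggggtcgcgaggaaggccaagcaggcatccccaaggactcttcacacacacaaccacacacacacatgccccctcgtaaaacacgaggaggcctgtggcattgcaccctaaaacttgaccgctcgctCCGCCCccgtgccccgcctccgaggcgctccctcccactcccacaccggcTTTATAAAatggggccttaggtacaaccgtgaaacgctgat
Fabp3, GRCr8 chr5:147935875-147936124, plus strand: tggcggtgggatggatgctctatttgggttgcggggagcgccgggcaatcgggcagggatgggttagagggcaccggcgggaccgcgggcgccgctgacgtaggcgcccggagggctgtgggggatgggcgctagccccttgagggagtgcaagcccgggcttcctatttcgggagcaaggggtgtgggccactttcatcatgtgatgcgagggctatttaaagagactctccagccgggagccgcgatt
Cpt1a, GRCr8 chr1:209995910-209996159, plus strand: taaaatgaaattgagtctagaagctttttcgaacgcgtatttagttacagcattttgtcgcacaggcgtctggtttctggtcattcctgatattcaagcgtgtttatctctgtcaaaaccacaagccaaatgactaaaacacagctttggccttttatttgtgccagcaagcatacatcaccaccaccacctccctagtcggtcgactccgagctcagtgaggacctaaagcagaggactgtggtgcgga
Cpt2, GRCr8 chr5:127910819-127911068, minus strand: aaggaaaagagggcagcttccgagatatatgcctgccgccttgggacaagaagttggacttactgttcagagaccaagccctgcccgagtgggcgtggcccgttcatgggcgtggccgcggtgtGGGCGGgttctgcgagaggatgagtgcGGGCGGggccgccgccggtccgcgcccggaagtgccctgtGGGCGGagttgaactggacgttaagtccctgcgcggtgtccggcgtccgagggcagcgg
Mlycd, GRCr8 chr19:64356332-64356581, plus strand: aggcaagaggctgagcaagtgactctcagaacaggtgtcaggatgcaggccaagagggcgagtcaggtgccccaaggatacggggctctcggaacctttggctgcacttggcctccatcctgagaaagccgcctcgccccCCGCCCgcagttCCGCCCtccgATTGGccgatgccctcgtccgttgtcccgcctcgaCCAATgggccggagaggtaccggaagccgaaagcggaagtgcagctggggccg

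These promoters differed in base composition. G and C made up 66.8% of the Cpt2 sequence, 65.6% at Fabp3, 65.2% at Mlycd, 60% at Angptl4 and 45.6% at Cpt1a, against a median of 51.2% over the 33469 RefSeq promoters (quartiles 44 and 60%). Entries existed for 8 of the 10 genes, all but Lpl and Cpt1b. In the window from 250 bases before to 50 after the start, GGGCGG was found in 3 of the 8, namely Angptl4, Cpt2 with 3 copies and Mlycd with 2 copies, against 33.1% of all promoters. CCAAT was found in 3 of the 8 (Acsl1, Acacb and Mlycd) against 37.5%, and TATAAA in 2 of the 8 (Angptl4, as overlapping matches on both strands, and Cd36) against 14.2%. The core hexamer of nuclear receptor sites, AGGTCA, was found in 1 of the 8, Acacb, against 16.2%. A direct repeat of that hexamer with 1 base between, the core of the element bound by peroxisome proliferator-activated receptors, was found in 0 of the 8 and in 0.0538% of all promoters. CACGTG was found in 0 of the 8, against 6.42%. The Fabp3 and Cpt1a windows held none of the 6 motifs.

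Of the 10 genes, 8 had a peak (80%, 95% Clopper-Pearson interval 44.4 to 97.5%), against 27.1% of 23154 protein-coding genes. A peak of class promoter-TSS, the authors' class for peaks at a start and mostly upstream of it, was present at 7 of 10 (70%, 34.8 to 93.3%), against 9.87%. All 7 peaks were centred upstream of the TSS, as were 2240 of the 2807 peaks of this class. The peaks over the TSS of Cpt1a and Cpt2, centred downstream, were classed as intron and exon. Lack of a promoter-class peak is thus not lack of a peak near the start. Counting only promoter-class peaks at −log10 q of at least 5, a measure of the caller's confidence, left 2 of 10 (Lpl and Cpt1a), against 4.23%. Centres no farther than 1000 bp from a TSS were found at 8 of 10, against 17.1%. At least 3 peaks were assigned to 7 of 10 genes, against 9.53%. With peaks less than 1000 bp apart joined, this held for 3 of 10 (Lpl, Acsl1 and Acacb), against 6.41%. These intervals cover counting error only, and the genes were chosen as 1 pathway with earlier results of these data known.

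Peaks of these genes lay closer to the TSS than the list as a whole. Of the 33, 21 (63.6%) had centres within 3000 bp of the TSS, against 27.1% of the 28673 other peaks. Angptl4, Cpt1a and Cpt2 gave 13 of the 33 peaks, all of them within that window. At each of these 3 genes the peaks join into 1 stretch when gaps under 1000 bp are closed. The share within 3000 bp thus rests in large part on a few compact clusters. Promoter-TSS peaks made up 7 of 33 (21.2%), against 9.77%, and intergenic peaks 5 of 33 (15.2%), against 41.1%. Introns held 18 and exons 3, and 13 of the 18 intron peaks lay in intron 1. In strength they lay close to the list as a whole. The authors' fold enrichment, a ratio to the peak caller's local background, had a median of 4.32 over the 33 peaks, with a range of 2.88 to 6.30, against a median of 4.13 over the other peaks, whose range was 1.57 to 13.7. Only 2 of the 33 reached 6-fold (6.06%), against 6.31% of the others. The median width was 539 bp at these genes and 375 bp elsewhere.

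**Figure D1:**
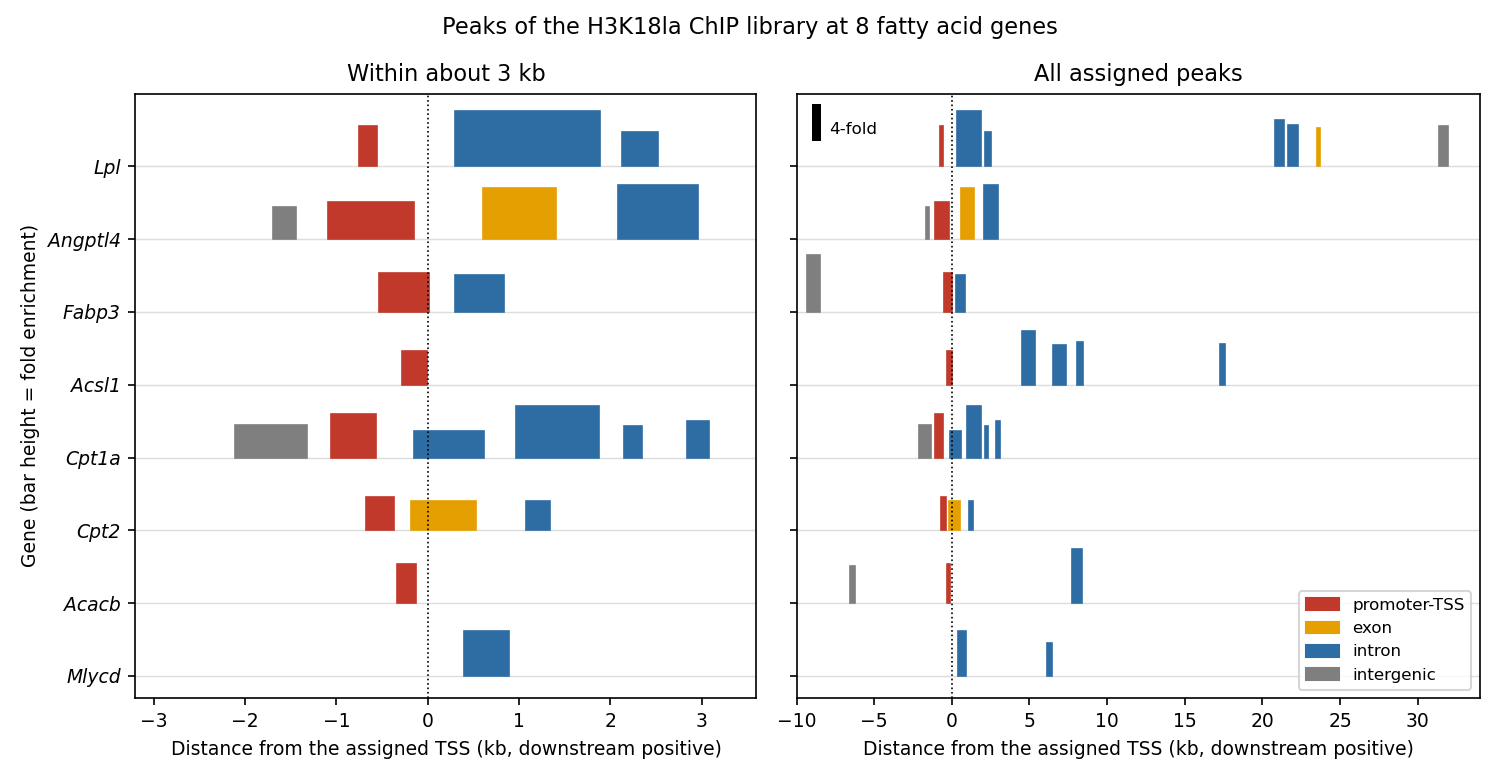
Peaks at the 8 genes against the distance from the TSS that the annotation assigned (kb, downstream positive), within about 3 kb on the left and in full on the right. Bar width is the peak width, bar height the fold enrichment, and colour the peak class. Angptl4, Cpt1a and Cpt2 have all their peaks within 3 kb, while Lpl reaches to 31.7 kb and Acsl1 to 17.4 kb downstream.

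Lpl encodes lipoprotein lipase, the enzyme that releases fatty acids from triglyceride-rich lipoproteins. It carried 7 peaks on chromosome 16, the most of the 8 genes. With gaps under 1000 bp closed they joined into 4 stretches. Around the TSS, a wide peak of 1579 bp in intron 1 (rn6 chr16:22559615-22561193), centred 1092 bp downstream, had 6.12-fold enrichment and a −log10 q (the authors' measure of confidence, higher for a clearer peak) of 11.5, the highest −log10 q of the 33. The coordinates are those of the rat genome build rn6. A weaker peak of 3.81-fold followed 2324 bp downstream, and the promoter-class peak, 655 bp upstream, had 4.38-fold. The other peaks lay at the far end of the gene or beyond it. There, intron 9 held peaks of 5.11-fold and 4.51-fold, 21.1 and 22.0 kb downstream, the last exon, exon 10, a peak of 4.23-fold at 23.6 kb, and intergenic sequence beyond it a peak of 4.44-fold at 31.7 kb. Upstream, 3 peaks within 30 kb were assigned to the unnamed model AABR07024955.1. The nearest, an exon peak of 4.69-fold (chr16:22562976-22563421), began 0.724 kb past the Lpl promoter peak. The others lay farther off and began at chr16:22570769 and chr16:22581624. A peak near the start of Lpl thus carried another name.

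Angptl4 encodes a secreted inhibitor of lipoprotein lipase that fasting and fatty acids induce. Its 4 peaks stood side by side in 4.646 kb of chromosome 7 and covered 61.6% of it. The strongest, 5.91-fold, lay in intron 3, 2517 bp downstream (chr7:18631124-18632000), and the next, 5.63-fold, in exon 3, 1004 bp downstream (chr7:18632676-18633474). The promoter-class peak, 623 bp upstream, had 4.09-fold and an intergenic peak 1566 bp upstream 3.58-fold. Enrichment was thus higher in the gene body than before the start. The TSS itself lay between peaks, 154 bp from the nearest edge. Downstream, past the last Angptl4 peak, the next peaks lay 18.9 kb away and belonged to Rab11b.

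Fabp3 encodes the heart-type fatty acid binding protein, which carries fatty acids through the cytosol of cardiomyocytes. It had the strongest single peak of the 33, at 6.30-fold, and that peak lay outside the gene, 8917 bp upstream (chr5:148519409-148520208). At the start, the promoter-class peak of 4.28-fold reached over the TSS (chr5:148528198-148528736), and a peak of 4.09-fold stood in intron 1, 567 bp downstream. No peak of another name lay within 30 kb. Ranked by its strongest peak, Fabp3 was number 939 of 8094 names, with Rab11a directly above it and Ech1, an auxiliary enzyme of β-oxidation, directly below it at 6.29-fold. The same strongest value was shared by 19 names.

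Cd36 encodes the membrane protein through which much of the fatty acid uptake of the heart runs, and no peak carried its name. By gene order, the stretch of chromosome 4 at or beside Cd36 nevertheless held 1 of the highest peak counts of any name in the list. In the GRCr8 gene table Cd36 stands between Gnat3, a taste G protein subunit, and its relative Cd36l1. The annotation gave 8 peaks to Gnat3, and 44 to RGD1565355, which the table lists as an older symbol of Cd36l1. In rn6 these 44 peaks ran from 13940626 to 14161464 on chromosome 4, directly after those of Gnat3 and of the unnamed model AABR07059295.1, which had 5. Among the 8075 names confined to 1 chromosome, RGD1565355 ranked number 6 by peak count, tied with 1 other name. The 44 peaks were assigned to 7 transcripts, which do not all share 1 start. The strongest peak had 6.98-fold and a −log10 q of 13.6, 1590 bp upstream of its assigned TSS (chr4:13999460-14000883). A promoter-class peak of 3.61-fold, assigned to the same TSS, covered chr4:14001078-14002176. Within 20 kb before and 15 kb after that TSS, 23 peaks covered 17.7 kb of a span of 32.4 kb (54.5%). Both edges of this window fall in gaps between peaks, and the span runs from its first to its last peak. The share thus describes that dense run only. Over their whole span of 220.8 kb the 44 peaks covered 13.1%, less than at Cpt1a, Cpt2 or Angptl4. Their median was 4.24-fold.

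Which of these peaks lie in Cd36 itself cannot be told from the assigned names, because the annotation names no Cd36 peak and the genes that follow it in the table are Cd36l1, LOC134486712 and Cd36-ps1. Neither LOC134486712 nor Cd36-ps1, nor the pseudogene and the tRNA gene between Gnat3 and Cd36, carried a peak by name. Whether the rn6 annotation holds these GRCr8 names at all was not checked, so their absence says little. Reads from near-identical stretches of Cd36 and its relatives could also be shared between them. The upstream windows of Cd36 and Cd36l1 themselves were not close, with 171 of 300 bases identical (57%) in a global alignment. The absence of a Cd36 peak is therefore a statement on names, not on the mark at Cd36.

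**Figure D2:**
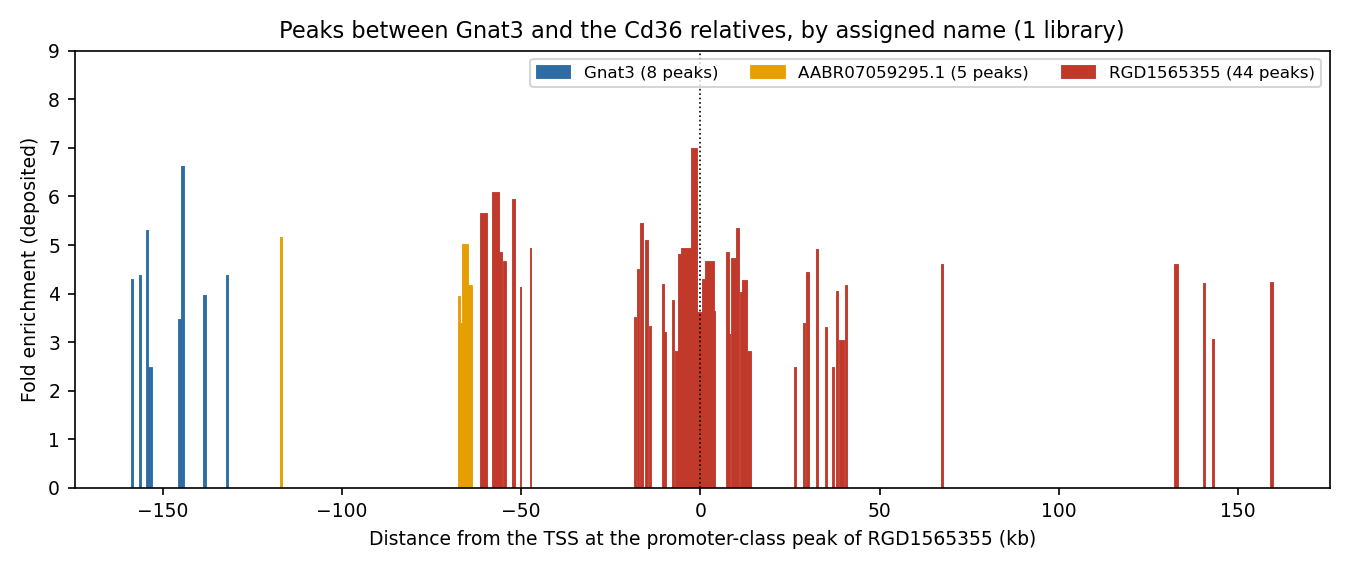
Fold enrichment of each peak from Gnat3 to the end of the peaks named RGD1565355, against the distance (kb) from the TSS next to the promoter-class peak of RGD1565355. Bar width is the peak width and colour the name the annotation gave. The 44 peaks of RGD1565355 are densest around that TSS and reach 6.98-fold.

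Acsl1 encodes the main long-chain acyl-CoA synthetase of the heart. It carried 5 peaks over 32.4 kb of chromosome 16, assigned to 2 alternative starts. The promoter-class peak, at the inner start, was the weakest at 3.70-fold (chr16:48981987-48982266), and its edge lay 7 bp from the TSS. The strongest, 5.92-fold, lay 4939 bp downstream of that start in intron 2 (chr16:48976636-48977447). A peak of 4.53-fold followed in intron 4, at 17.4 kb. Upstream of the inner start, an intron 1 of a transcript from the outer start held peaks of 4.74-fold and 4.38-fold (chr16:48994791-48995203 and chr16:48995873-48996742), 8249 and 6939 bp from the outer start. The outer start had no promoter-class peak of its own.

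The carnitine palmitoyltransferases ranged from 6 named peaks at Cpt1a to 3 at Cpt2 and none at Cpt1b. Cpt1a encodes the isoform of the outer mitochondrial membrane that predominates in liver, and also in the fetal heart, whereas Cpt1b encodes the muscle isoform that predominates in the adult heart. Cpt1a carried 6 peaks within 5.189 kb of chromosome 1, all with centres within 3000 bp of the TSS, and they covered 65.4% of that span. By the number of peaks in that window, counted as called, it ranked number 13 of 8094 names. At least 3 such peaks were present at 4 of the 10 genes, Lpl, Angptl4, Cpt1a and Cpt2, against 2.36% of protein-coding genes. With peaks less than 1000 bp apart joined, 0 of the 10 genes kept 3, against 0.168%. The strongest Cpt1a peak, 5.69-fold with a −log10 q of 9.61, lay in intron 1, 1424 bp downstream (chr1:218570483-218571385). The promoter-class peak, 816 bp upstream, was the strongest of its class among these genes at 4.77-fold (chr1:218568447-218568941). The peak over the TSS was the weakest of the 33 at 2.88-fold (chr1:218569363-218570125). The remaining intron 1 peaks had 3.49-fold and 4.001-fold, and an upstream intergenic peak 3.59-fold. Along the start of Cpt1a the higher values thus stood on both sides of a low peak at the TSS.

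No peak carried the name of Cpt1b, nor of its 3 neighbours on either side in the gene table, which include Chkb, Syce3, Klhdc7b and Cimap1b. The remaining neighbours have placeholder names, and whether the rn6 annotation holds any of these names was not checked. The nearest named peaks belonged to Tymp before Cpt1b and to Arsa after it. Between them rn6 held a single peak, of promoter class and 3.76-fold, assigned to the unnamed model AC125982.1 (chr7:130407222-130407476). Whether it lies near Cpt1b was not tested, since no rn6 gene model of Cpt1b was used here. If rn6 keeps the gene order of GRCr8, the stretch that holds Cpt1b thus had 1 peak, while Cpt1a had 6, which join into 1 when gaps under 1000 bp are closed. Cpt1a and Cpt1b were compared by assigned names in 1 library, and the mark's level at a gene without a peak is not known.

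Cpt2 encodes the transferase of the inner mitochondrial membrane, which turns acyl-carnitine back into acyl-CoA. It had 3 peaks within 2.013 kb of chromosome 5, and they were the weakest group of the 8 genes. The promoter-class peak had 3.66-fold (523 bp upstream, chr5:127523457-127523767), the exon 1 peak over the TSS 3.24-fold (chr5:127522564-127523266) and the intron 1 peak 3.18-fold (1204 bp downstream). All 3 lay below the median of the whole list, and Cpt2 ranked number 6726 of 8094 names by its strongest peak. Cpt2 was the 1 gene of the 7 with a promoter-class peak in which that peak was the strongest.

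Acacb and Mlycd control the malonyl-CoA that inhibits the carnitine shuttle. Acacb encodes the mitochondrial acetyl-CoA carboxylase that makes it. Its 3 peaks were spread over 34.9 kb of chromosome 12 and covered 3.17% of it. The strongest, 5.91-fold with a −log10 q of 9.33, lay in intron 1, 8085 bp downstream of an inner start (chr12:48210549-48211192). At an outer start, the promoter-class peak had 4.32-fold (233 bp upstream, chr12:48239021-48239220), and an intergenic peak 6398 bp upstream 4.06-fold. Mlycd encodes malonyl-CoA decarboxylase, which removes malonyl-CoA. It had 2 peaks on chromosome 19, both in intron 1. These had 4.93-fold at 644 bp downstream (chr19:52033289-52033771) and 3.66-fold at 6292 bp. Mlycd was the only 1 of the 8 genes with peaks that had no promoter-class peak, although its first peak lay within 1000 bp of the TSS.

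**Figure D3:**
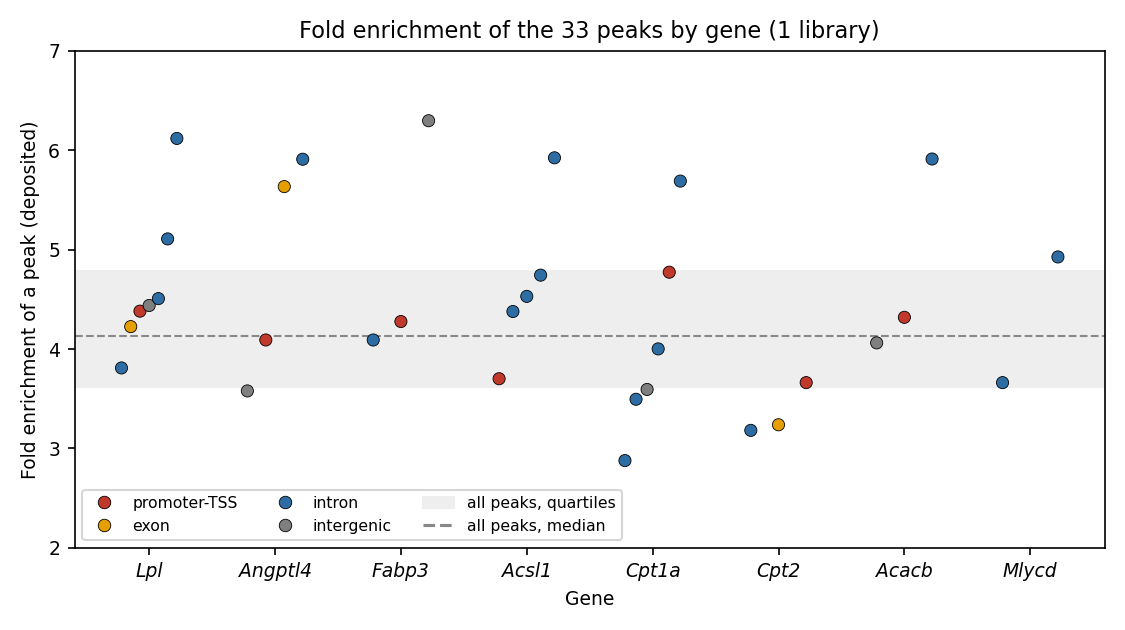
Fold enrichment of each of the 33 peaks by gene, as deposited for 1 library. Colours give the peak class, the band the quartiles of all 28706 peaks (3.62 and 4.79) and the dashed line their median (4.13). In 6 of the 7 genes with a promoter-class peak the highest point is of another class, and the Cpt2 points all lie below the median.

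Within genes, the strongest enrichment mostly lay outside the promoter class, which at these genes held only peaks centred upstream of the TSS. Of the 7 genes with both a promoter-class peak and another peak, 6 had a stronger peak outside the promoter class, against 66.3% of the 1492 names with both kinds. This order was thus common over the list as a whole. The difference was 2.22-fold units at Acsl1, 2.02 at Fabp3, 1.82 at Angptl4, 1.74 at Lpl, 1.59 at Acacb, 0.917 at Cpt1a and -0.424 at Cpt2. The 7 promoter-class peaks spanned a narrow range, 3.66-fold to 4.77-fold, with a median of 4.28. The strongest peaks of the 8 genes had a median of 5.91-fold, against 4.63-fold over the 6267 protein-coding genes with a peak. These medians were not tested, and genes with more peaks have more chances of a strong one.

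Peaks stood on both sides of the TSS at several of these genes. Centres on both sides within 3000 bp were found at 5 of 10 genes (Lpl, Angptl4, Fabp3, Cpt1a and Cpt2), against 4.63% of protein-coding genes. The TSS lay inside a peak at 3 of the 8 genes, Fabp3, Cpt1a and Cpt2, all of them among these 5. The share of all genes with a TSS inside a peak was not counted, so this 3 has no background. At the other genes with peaks the nearest peak edge lay 7 bp (Acsl1), 134 bp (Acacb), 154 bp (Angptl4), 303 bp (Lpl) and 403 bp (Mlycd) from the TSS.

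By rank of the strongest peak among all names, 6 of the 8 genes came close together. Fabp3 was number 939, Lpl 1193, Acsl1 1310, Acacb 1462, Angptl4 1482 and Cpt1a 1645, while Mlycd was number 3317 and Cpt2 6726. At least 6-fold enrichment was reached by 2 of the 10 genes, Lpl and Fabp3, against 4.17% of protein-coding genes. By −log10 q Lpl came first of the 8, at number 603, with Gimap6 directly above it, followed by Angptl4 at 887 and Cpt1a at 1017.

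**Figure D4:**
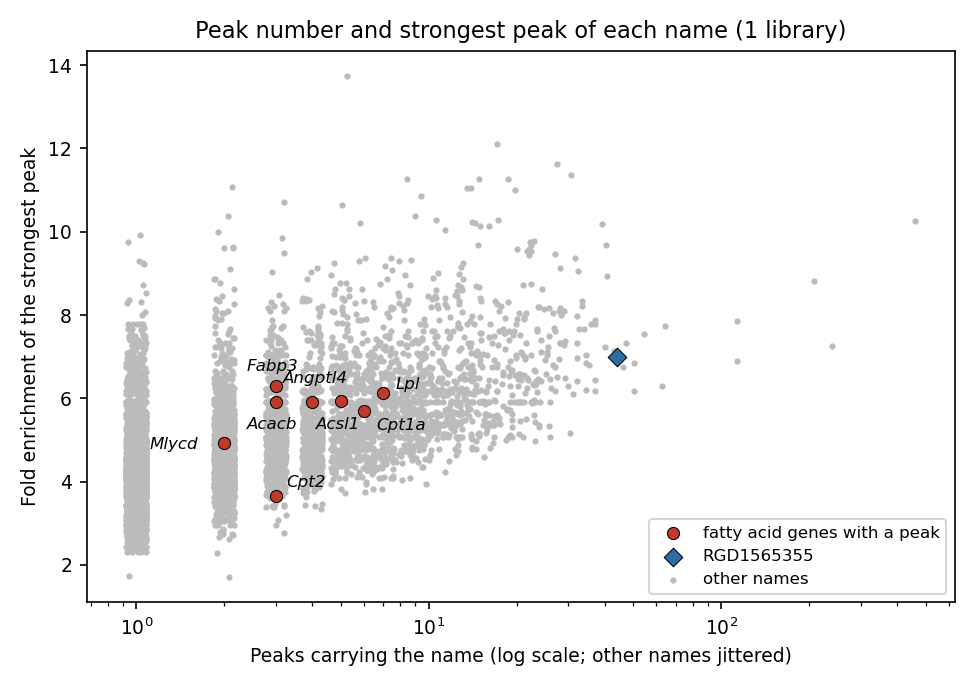
Fold enrichment of the strongest peak against the number of peaks (log scale) for each of the 8094 names, with the 8 fatty acid genes as red circles and RGD1565355 as a blue diamond. A few names on the far right stand for several loci on different chromosomes. The 8 genes have 2 to 7 peaks and strongest peaks of 3.66-fold to 6.30-fold, inside the cloud of other names.

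Further lists of lipid genes were counted in the same way, and their intervals overlap widely. Over all protein-coding genes the shares were 27.1% for any peak, 17.1% for a centre within 1000 bp and 9.87% for a promoter-class peak. Of 10 further uptake and binding genes, 8 had a peak (80%, 44.4 to 97.5%), 7 had one centred within 1000 bp of the TSS, and 0 had a promoter-class peak (interval 0 to 30.8%). The strongest were Fabp4, the fatty acid binding protein of adipocytes and capillary endothelium, at 7.32-fold 1785 bp upstream, and Vldlr, a receptor for triglyceride-rich lipoproteins, at 6.30-fold in an intron 481 bp downstream. No peak carried the names of the fatty acid transport proteins Slc27a4 and Slc27a6. Gpihbp1, which holds lipoprotein lipase at the capillary wall, had 3 peaks of up to 4.91-fold. Of 4 other acyl-CoA synthetases, Acsl3 (4.44-fold) and Acsl5 (4.28-fold) had 1 peak each and Acsl4 and Acsl6 had none.

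In the carnitine group, 4 of 6 genes had a peak, against 27.1% of protein-coding genes. A promoter-class peak was present at 0 of 6 (interval 0 to 45.9%), against 9.87%. A centre within 1000 bp of the TSS was present at 2 of 6, against 17.1%. Slc25a20, the carnitine-acylcarnitine translocase that exchanges the shuttle's substrates across the inner membrane, had 3 peaks with 6.20-fold in an exon 137 bp downstream of the TSS. Slc22a5, the plasma membrane carnitine transporter, had 3 peaks, the nearest 34141 bp from its TSS and the strongest of 4.58-fold. Slc22a4 and Crot had none. Among 7 genes of malonyl-CoA control, 4 had a peak and 3 a promoter-class peak, against the same shares of 27.1% and 9.87%. All of these were subunits of the AMP-activated protein kinase, which inhibits acetyl-CoA carboxylase. Prkaa2, the catalytic subunit of muscle and heart, reached 5.25-fold, and Prkag2 4.36-fold. Acaca, the cytosolic carboxylase, Prkab2 and Prkag1 had no peak.

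All 9 genes of lipid droplet storage and breakdown had a peak (100%, 66.4 to 100%), against 27.1% of protein-coding genes. A promoter-class peak was present at 4 of them, against 9.87%, and a centre within 1000 bp at 7, against 17.1%. Mgll, a monoacylglycerol lipase, had 11 peaks with a strongest of 7.46-fold, 7736 bp upstream. Pnpla2, the adipose triglyceride lipase, had 6.14-fold in an intron 462 bp downstream. These lists were not tested against each other or against the 10 genes.

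**Figure D5:**
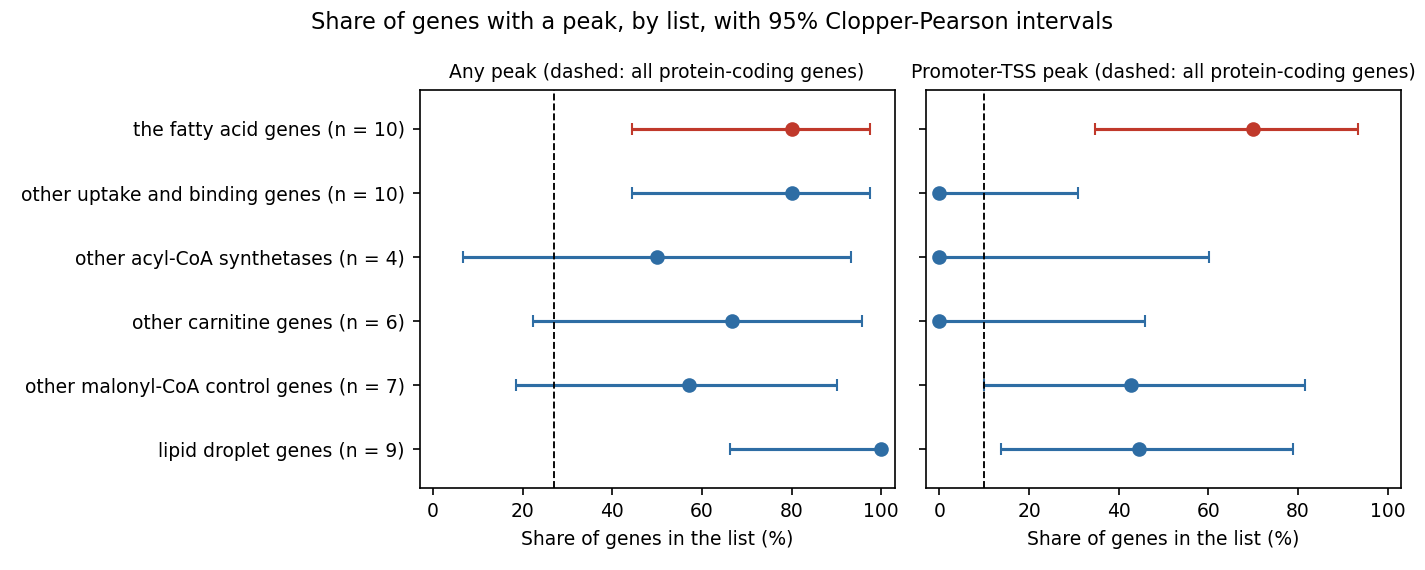
Share of genes with any peak (left) and with a promoter-TSS peak (right) in the set of 10 genes and in 5 further lists, with 95% Clopper-Pearson intervals for counting error. Dashed lines give the share over all protein-coding genes, 27.1% and 9.87%. The 10 genes and the further uptake genes both stand at 80% for any peak, and at 70% and 0% for promoter-class peaks.

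The tissue label was checked against marker genes, with 27.1% of all protein-coding genes having a peak. Peaks were assigned to 7 of 10 cardiomyocyte markers, of which Myh7 and Tnnt2 had a promoter-class peak and Myh6, Ttn and Ryr2 had no peak. Peaks were also assigned to 6 of 8 endothelial markers, of which Tie1, Erg and Sox17 had a promoter-class peak and Pecam1 and Emcn no peak, and to 3 of 8 adipocyte markers, with a promoter-class peak at Pparg and none of any class at Plin1, Cidec, Lep, Cebpa and Cfd. Of the other endothelial markers, Kdr, a receptor of vascular endothelial growth factor, had 19 peaks of up to 7.61-fold and Tek, the angiopoietin receptor, had 7 of up to 6.90-fold. The adipocyte hormone gene Adipoq had 3 of up to 3.94-fold, and Fabp4, given above, is also an adipocyte marker. At least 6-fold was reached by 3 of 8 endothelial, 1 of 8 adipocyte (Fabp4) and 0 of 10 cardiomyocyte markers, against 4.17% of protein-coding genes. The interval for 0 of 10, 0 to 30.8%, includes that share. The median strongest peak of those with a peak was 6.41-fold for endothelial, 5.68-fold for adipocyte and 4.94-fold for cardiomyocyte markers. Over all protein-coding genes with a peak it was 4.63-fold. The lists were not tested against each other. Hepatocyte markers had 2 of 6 (33.3%), with none at Alb, Ahsg, Apoa1 and Serpina1, and skeletal muscle markers 2 of 8 (25%), with a promoter-class peak at Casq1 and none of any class at Acta1, Myh1, Myh2, Myh4, Atp2a1 and Cacna1s. Both shares lie near that of all genes. Lpl, Cd36, Angptl4 and Acsl1 are expressed by adipocytes too, and Lpl and Cd36 also act at the capillary endothelium. The part of each cell type in the peaks of these genes was not tested, since a bulk library mixes them.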

How the data were processed

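The tools named were Bowtie2, MACS2 and HOMER besides FastQC, Trim Galore, SAMtools and deepTools, with build rn6, per the submitters' processing notes. Versions are not given in the sources used here. The deposited peak list of 1 ChIP library gives each peak's fold enrichment (a ratio to local background), −log10 p and −log10 q, per the file headers, and a score, which in all 28706 peaks was −log10 q multiplied by 10 and rounded down. Per the file headers, peaks were called at q 0.05 and annotated by HOMER with a class, a nearest TSS and a gene name. Whether the input served as background is not given in the sources used here.

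The annotation was joined to the peak list by peak name. Coordinates are 1-based rn6. TSS positions were computed back from the deposited distances. Names were matched to a GRCr8 gene table, used for names and gene order, and 78.8% of 8094 names matched. The 23154 protein-coding genes of the table are the background. The 1719 unmatched names were not counted in it, and a gene that the rn6 annotation does not name counted as without a peak. Shares over all protein-coding genes may therefore be too low. Shares have 95% Clopper-Pearson intervals (scipy 1.17.1). Sequences are from RefSeq (GRCr8), aligned with biopython 1.88. Counting functions were tested on simulated data. Stricter q and fold minimums, distance windows and joining of near peaks were tried as alternatives, and the counts under RGD1565355 and of genes with at least 3 joined peaks were added after seeing the data. The 10 genes and the lists were chosen with earlier results of these data known. Named beyond the 10 were the 2 genes with the strongest peaks and those without a peak in each list, marker genes with a promoter-class peak or no peak, 3 neighbours on each side of genes without a peak, and neighbours in rank. Gpihbp1, Slc22a5, Kdr, Tek, Adipoq, Tymp, Arsa, Rab11b and the unnamed models were named after their values were seen. Depth is unknown, since the files hold no read totals.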

Additional observations from a re-analysis of the deposited data

How the results depend on the processing

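The count of genes with a peak, 8 of 10, stayed between 7 and 9 under every alternative run. It was 7 at −log10 q of at least 5, 7 at fold enrichment of at least 4, 7 for promoter-TSS peaks and 8 with centres within 1000, 3000 or 10000 bp. The shares over all protein-coding genes for promoter-TSS peaks and the 1000 bp window are given above. Under the q and fold minimums and the wider windows that share was not counted, so those counts have no background here. At −log10 q of at least 5 the genes with a promoter-class peak dropped to 2, Lpl and Cpt1a, the peaks to 11, and the median fold enrichment stood at 5.69. Joining peaks of 1 gene less than 1000 bp apart left 18 peaks, and less than 3000 bp apart 17. Under the first of these, chosen after seeing the data for these counts, genes with at least 3 peaks numbered 3 instead of 7, and those with at least 3 within 3000 bp of the TSS 0 instead of 4. Counting the peaks named RGD1565355 for Cd36, an alternative chosen after seeing the data, gave 77 peaks at 9 genes, with a promoter-class peak at 8. Without placeholder symbols the background share with any peak was 29.9%. Of 45 values of a gene's strongest peak under these alternatives, 32 moved by less than 0.924, the SD over the 33 peaks. Many of the 32 could not move. A fold minimum cannot change a gene's strongest peak, only remove the gene. The −log10 q minimum and the 10000 bp window also kept the strongest peaks. Cpt2 had no peak left at either minimum and gave no value there. The 32 are therefore no measure of stability. No paired analysis was possible because only the ChIP sample has files. Depth is unknown, so a missing peak means no call at this threshold.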

Other observations

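The deposited values are coarse. Of the 28706 peaks, 98.1% shared both their fold enrichment and their −log10 q with at least 1 other peak, and the list held 1838 distinct pairs of these values. All 33 peaks of the fatty acid genes shared theirs with another peak of the list. The Angptl4 promoter-class peak and the Fabp3 intron peak had the same pair of values, as did the Cpt2 promoter-class peak and the second Mlycd peak.

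Gnat3, the neighbour of Cd36 whose known role is in taste cells, carried 8 peaks in this heart library, 7 of them in introns and 1 in an exon, with a strongest of 6.61-fold in intron 2 (rn6 chr4:13857214-13857661) and none of promoter class.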
